A study of Rattus norvegicus with 15 samples.

Results

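The genes described here are 7 genes of the inflammatory cytokine and NF-kB pathway, followed in the lumbar spinal cord of rats with a ligated sciatic nerve. They were chosen by name and identifier out of 34202 gene rows in each table, and all 7 were among the 16522 genes kept by the filter on low counts. Tlr4 (ENSRNOG00000010522) stands at the head of the pathway, Nfkb1 (ENSRNOG00000023258) and Nfkbia (ENSRNOG00000007390) in its middle, and Il1b (ENSRNOG00000004649), Il6 (ENSRNOG00000010278), Ccl2 (ENSRNOG00000007159) and Ptgs2 (ENSRNOG00000002525) among its products. The tables hold identifiers alone, so the pairing with symbols is the one given with the choice of genes.

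All rats were adult male Sprague-Dawley rats, and the tissue was the L4-L6 cord on the operated side, taken on postoperative day 10. The ligated rats had undergone chronic constriction injury (CCI), a neuropathic pain model in which loose ligatures are tied around the left sciatic nerve. Of these, the CCI+YZP group received Yuan-Hu Zhi Tong Prescription at 10.8 g crude drug per kg, the CCI+YH group received the preparation labelled YH at 7.2 g per kg and the CCI+BZ group received the preparation labelled BZ at 3.6 g per kg, each for 5 days from day 6 to day 10. The CCI group was ligated and given none of these, and the Sham group had the nerve exposed without ligation; no vehicle is named for either. The labels speak of 7 rats in each ligated group and of 3 sequenced, so the 15 libraries, 3 in each of 5 groups, are taken as separate rats. Whole cord segments were sequenced, so fewer cells of a type and less RNA per cell cannot be told apart.

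NF-kB is a family of transcription factors held inactive in the cytoplasm by inhibitor proteins. Signals from receptors such as Tlr4 lead to loss of the inhibitor, and the freed factor enters the nucleus and switches on cytokine, chemokine and prostaglandin genes, together with the gene of its own inhibitor. In the dorsal horn these products are made by microglia, astrocytes, endothelium and neurons, and they are known for raising the excitability of pain pathways after nerve injury.

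Promoters of 6 of the 7 genes were found by symbol in RefSeq (GRCr8), as windows of 300 bases that end 50 bases past the start of the gene. The kB consensus, the DNA sequence of 10 bases that NF-kB recognises, was searched on both strands in these windows and matched in 3 of them, those of Il6, Nfkb1 and Nfkbia. It matched in 7.51% of all 33469 promoters of this length. The windows of Il1b, Ptgs2 and Tlr4 held no match. Sites outside these windows, or sites that depart from the consensus, were not searched for, so a missing match does not show that a gene lacks a site. A match describes the letters only, and binding was not measured. The 250 bases before the start are shown for Il6, whose level varied widely between rats, and for Nfkbia, the inhibitor gene, and for Nfkb1 the 30 bases around its match are shown, since that match lies past the start. Capitals mark the kB match, and each sequence runs 5′ to 3′ on the strand of its gene.
Il6, chr4:5894576-5894825, minus strand: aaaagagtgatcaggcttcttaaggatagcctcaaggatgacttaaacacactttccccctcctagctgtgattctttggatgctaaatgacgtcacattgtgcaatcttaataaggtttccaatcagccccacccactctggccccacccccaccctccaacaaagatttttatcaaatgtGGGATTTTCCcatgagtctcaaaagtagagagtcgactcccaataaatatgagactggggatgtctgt
Nfkbia, chr6:78597073-78597322, minus strand: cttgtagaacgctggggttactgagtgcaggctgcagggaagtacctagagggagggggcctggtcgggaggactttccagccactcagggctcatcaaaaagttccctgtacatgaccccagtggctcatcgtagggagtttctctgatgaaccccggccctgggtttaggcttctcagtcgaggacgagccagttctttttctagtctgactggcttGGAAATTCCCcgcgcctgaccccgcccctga
Nfkb1, chr2:226805440-226805469, minus strand: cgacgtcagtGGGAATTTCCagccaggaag
The match began 68 bases before the start in Il6, 31 bases before it in Nfkbia (on the opposite strand) and at base 4 after it in Nfkb1.

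How far each gene can be read depends on its counts. Total counts per library ranged from 15093246 to 22757104. Levels are given as CPM, read counts divided by library size after scaling of the libraries by TMM (trimmed mean of M-values), with the mean ± SD over the 3 libraries of a group; levels of different genes are not compared, since CPM is not corrected for gene length. Nfkb1 held 511 to 737 counts and Nfkbia 318 to 888 counts in a library. Tlr4 held 47 to 94 and Ptgs2 22 to 161 counts. Ccl2 ranged from 0 to 116 counts, with fewer than 10 in 7 of the 15 libraries. Il1b, with 0 to 12 counts, was under 10 in 10 libraries, and Il6, with 1 to 19 counts, was under 10 in 12. Il1b and Il6 reached the level of the filter in only 4 and 3 libraries, so their folds below rest on very few reads. All of those libraries came from ligated rats, and no Sham library was among them. Ccl2 reached the level of the filter in 8 libraries, and the only Sham library among them was replicate 1, with 13 counts. Il1b and Il6 thus entered the tests through ligated groups alone, and Ccl2 mainly through them. This favours a higher level in ligated groups in the folds of these genes against Sham.

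**Figure D1:**
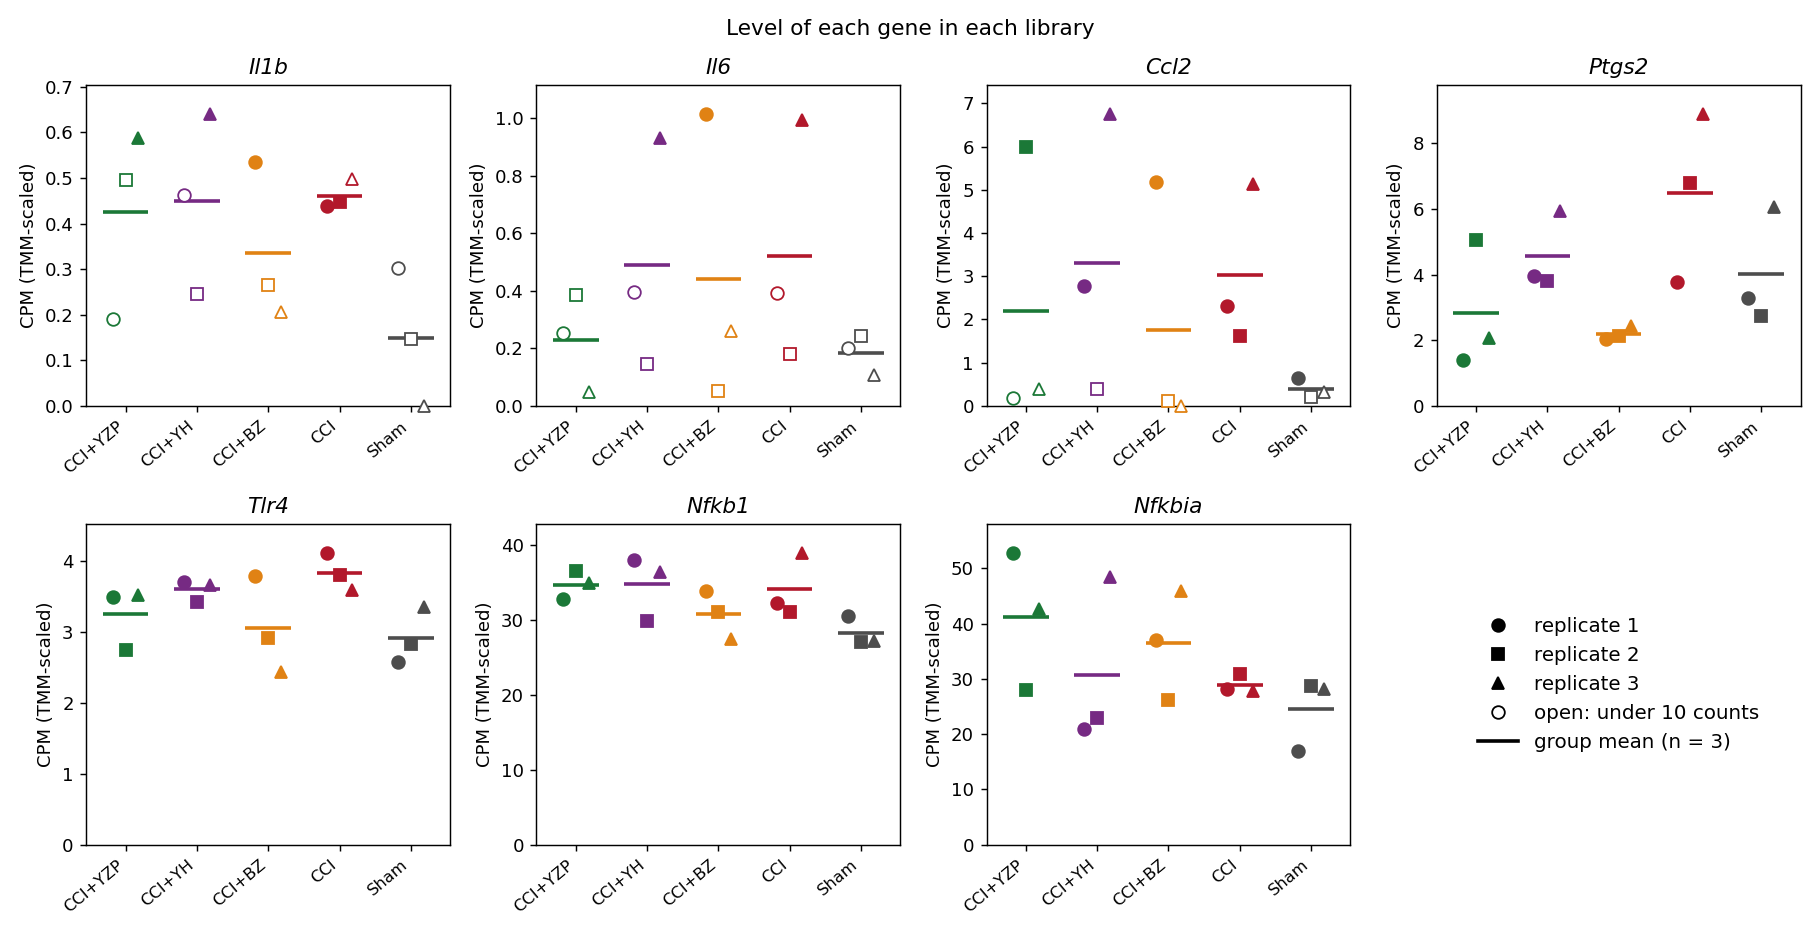
Level of each gene in CPM in each of the 15 libraries, with a panel per gene; symbols mark replicates 1 to 3, open symbols libraries with fewer than 10 counts, and bars the group means (n = 3). Ccl2 in CCI+YZP, CCI+YH and CCI+BZ was split between libraries under 0.4 CPM and libraries at 2.78 to 6.75 CPM, whereas the 3 CCI+BZ libraries lay close together for Ptgs2.

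No gene of the 7 passed the threshold (adjusted p under 0.05) in the test of equal means over the 5 groups, where edgeR called 0.0908% of all genes. Ptgs2 came nearest (unadjusted p = 0.026, edgeR adjusted p = 0.431) and was the only gene of the 7 with an unadjusted p under 0.05, as were 10.5% of all genes. Limma voom called 0 of the 7, and DESeq2 called 0 of the 5 genes to which it gave an adjusted p, Il1b and Il6 having none.

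CCI was first set against Sham, to ask what ligation did in rats given no preparation. All 7 genes had a higher mean level in CCI than in Sham, with a median log2 fold change of 0.69, against -0.0015 over all genes tested. For Il1b, Il6 and Ccl2 the filter favours this direction, and they lift the median and enter the tallies below. The log2 fold changes of Tlr4, Nfkb1, Nfkbia and Ptgs2 ran from 0.23 (Nfkbia) to 0.69 (Ptgs2). For Il1b, Ccl2, Tlr4 and Nfkb1 every CCI library lay above every Sham library, as it did for 13.2% of all genes. EdgeR called 0 of the 7 genes and 0.0182% of all genes, and the adjusted p of the 7 ranged from 0.224 to 0.741. At an unadjusted p under 0.05, Il1b, Tlr4 and Nfkb1 were higher in CCI, as were 9.56% of all genes. The share of counts taken by the 3 most abundant genes moved with these groups, at 6.78% to 7.55% in CCI and 8.49% to 9.60% in Sham, and its part in the differences was not tested.

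Tlr4, the receptor for bacterial lipopolysaccharide and for molecules released by damaged tissue, stood at 4.11, 3.80 and 3.59 CPM in CCI, against 2.57, 2.84 and 3.35 CPM in Sham. The groups did not overlap, although the gap between the lowest CCI and the highest Sham library was narrow. Its log2 fold change was 0.39 (SE 0.18, 95% interval 0.014 to 0.78, edgeR adjusted p = 0.264).

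Nfkb1 encodes the p105 precursor that is processed to the p50 subunit of NF-kB. It stood at 32.3, 31.1 and 39.0 CPM in CCI, against 30.5, 27.1 and 27.2 CPM in Sham, again without overlap. CCI replicate 3 was well above the other CCI libraries, which were close to the highest Sham library. This gave a log2 fold change of 0.27 (SE 0.11, 95% interval 0.035 to 0.50, edgeR adjusted p = 0.224).

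Nfkbia encodes IkBa, the inhibitor that NF-kB itself induces. Its CCI libraries held 28.1, 30.9 and 27.8 CPM and its Sham libraries 16.9, 28.8 and 28.2 CPM. The groups overlapped, and the lower Sham mean came from Sham replicate 1. Nfkbia had a log2 fold change of 0.23 with an interval from -0.45 to 0.92 (SE 0.32, edgeR adjusted p = 0.741).

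Il1b, the cytokine interleukin-1 beta, had 10, 10 and 9 counts in CCI and 6, 3 and 0 counts in Sham. These sum to 29 counts in CCI (exact 95% Poisson interval 19.4 to 41.6) and to 9 counts in Sham (4.12 to 17.1), intervals that cover counting error only. In the Sham library with 0 counts, a count of 0 allows up to 3 counts at a one-sided 95% level. Il1b had a log2 fold change of 1.56 (SE 0.69, 95% interval 0.070 to 3.05, edgeR adjusted p = 0.259). It was 1.02 without Sham replicate 3 and 2.50 without Sham replicate 1.

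Il6, the cytokine interleukin-6, had 9, 4 and 18 counts in CCI and 4, 5 and 2 counts in Sham. The groups overlapped, and CCI replicate 3 carried most of the CCI counts. Its log2 fold change was 1.42 (SE 0.96, 95% interval -0.64 to 3.48, edgeR adjusted p = 0.454), or 0.61 without CCI replicate 3.

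Ccl2 encodes the chemokine that draws monocytes carrying the receptor Ccr2. It had 53, 36 and 93 counts in CCI, against 13, 4 and 6 counts in Sham. On the CPM scale these were 2.32, 1.61 and 5.14 in CCI and 0.66, 0.20 and 0.32 in Sham, so the lowest CCI library lay above the highest Sham library. The mean level was 3.02 ± 1.87 CPM in CCI and 0.390 ± 0.238 CPM in Sham (SD, n = 3 each). The log2 fold change, 2.92, was the largest of the 7 and also the least precise (SE 1.54, 95% interval -0.38 to 6.22, edgeR adjusted p = 0.333). With only the CCI and Sham libraries in the fit, Ccl2 passed the threshold (edgeR adjusted p = 0.0422), as did 2.67% of all genes in that fit. That was the lowest adjusted p of Ccl2 among the alternatives, and the highest was 0.598. Its log2 fold change was 2.32 without CCI replicate 3 and 3.52 without Sham replicate 1.

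Ptgs2 encodes cyclooxygenase-2, the inducible enzyme of prostaglandin synthesis. It held 3.76, 6.80 and 8.89 CPM in CCI and 3.28, 2.74 and 6.06 CPM in Sham. The groups overlapped through CCI replicate 1 and Sham replicate 3, and the log2 fold change of 0.69 had an interval from -0.22 to 1.59 (SE 0.42, edgeR adjusted p = 0.408).

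With the 4 ligated groups averaged and set against Sham, edgeR called 0 of the 7 genes and 0.188% of all genes. At an unadjusted p under 0.05, Il1b (log2 fold change 1.41, edgeR adjusted p = 0.263) and Nfkb1 (0.25, SE 0.088, 95% interval 0.059 to 0.44, adjusted p = 0.194) were higher in the ligated groups, as were 8.45% of all genes. The log2 fold changes of the other genes were 2.65 for Ccl2, 1.06 for Il6, 0.46 for Nfkbia, 0.23 for Tlr4 and -0.12 for Ptgs2. Here too the filter favours the higher level of Il1b, Il6 and Ccl2 in ligated rats. The sign for Ptgs2 turned without Sham replicate 3, to 0.29. For Il1b the value was 2.35 without Sham replicate 1. For Ccl2 it was 1.43 without CCI+BZ replicate 1, 1.94 without CCI+YZP replicate 2 and 3.25 without Sham replicate 1, and limma voom gave 1.43.

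**Figure D2:**
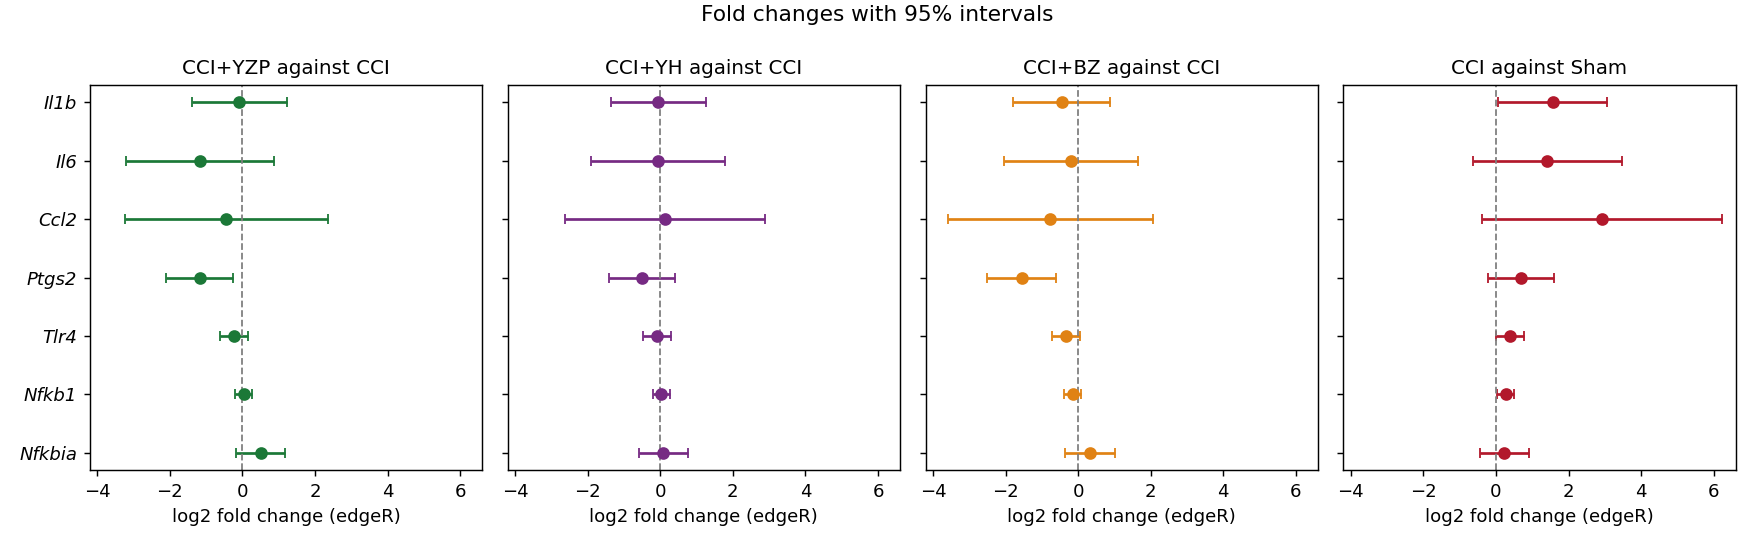
Log2 fold changes from edgeR with 95% intervals for the 7 genes, in a panel each for CCI+YZP, CCI+YH and CCI+BZ against CCI and for CCI against Sham; the dashed line marks no difference. Ptgs2 in CCI+BZ and CCI+YZP is the only gene whose interval lies wholly below 0, and the intervals of Ccl2 are the widest in each panel.

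Each treated group was then compared with CCI, to ask what each preparation did to the pathway in ligated rats. Ptgs2 had the smallest p of the 7 genes in all 3 comparisons, with a lower mean level in each treated group than in CCI, and it did not pass the adjustment in any of them. EdgeR called 0 of the 7 genes in each, beside 0.00605% of all genes for CCI+YZP, 0% for CCI+YH and 0% for CCI+BZ. At an unadjusted p under 0.05, Ptgs2 was the only gene of the 7 for CCI+YZP (as were 6.94% of all genes) and for CCI+BZ (6.63%), and there was 0 of the 7 for CCI+YH (5.59%). The 3 comparisons share the CCI libraries.

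Ptgs2 held 1.40, 5.06 and 2.06 CPM in the CCI+YZP libraries, 3.97, 3.82 and 5.94 CPM in those of CCI+YH and 2.03, 2.12 and 2.43 CPM in those of CCI+BZ, against 3.76, 6.80 and 8.89 CPM in CCI. The CCI+BZ libraries lay in a narrow band below every CCI library, and also below every Sham library. The share of all genes that separated in these ways was not counted, so the separation is a description only. The other treated groups overlapped CCI, through replicate 2 of CCI+YZP and through all 3 libraries of CCI+YH.

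Ptgs2 averaged 2.20 ± 0.211 CPM in CCI+BZ and 6.49 ± 2.58 CPM in CCI (SD, n = 3 each). The corresponding log2 fold change was -1.56 (SE 0.44, 95% interval -2.50 to -0.61). The unadjusted edgeR p was 0.00339 and the adjusted p 0.607, and its alternatives gave adjusted p-values between 0.14 (DESeq2) and 0.999. For CCI+YZP the log2 fold change against CCI was -1.18 (SE 0.43, 95% interval -2.11 to -0.25, edgeR adjusted p = 0.637), and without CCI+YZP replicate 2 it was -1.89. For CCI+YH it was -0.50 (SE 0.42, 95% interval -1.40 to 0.40, edgeR adjusted p = 0.937). Against Sham the log2 fold change of Ptgs2 in CCI+BZ was -0.87 (SE 0.44, 95% interval -1.82 to 0.083, edgeR adjusted p = 0.655).

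Nfkbia went the other way in its group means, and its treated libraries were far apart. It held 52.8, 28.0 and 42.7 CPM in the CCI+YZP libraries, 21.0, 22.9 and 48.4 CPM in those of CCI+YH and 37.1, 26.2 and 46.0 CPM in those of CCI+BZ, against 28.1, 30.9 and 27.8 CPM in CCI. CCI+YH and CCI+BZ had libraries on both sides of the CCI range, and CCI+YZP had 1 library within it and the others above it. The coefficient of variation within a group was 30.4% for CCI+YZP, 49.7% for CCI+YH and 27.2% for CCI+BZ, against 5.87% in CCI and 27.2% in Sham.

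Against CCI, Nfkbia had a log2 fold change of 0.51 in CCI+YZP (SE 0.32, 95% interval -0.17 to 1.18, edgeR adjusted p = 0.782) and 0.33 in CCI+BZ (SE 0.32, 95% interval -0.35 to 1.01, adjusted p = 0.862). In CCI+YH it was 0.087 (95% interval -0.60 to 0.77, adjusted p = 0.984), and without CCI+YH replicate 3 it was -0.40. The highest group mean, 41.2 ± 12.5 CPM in CCI+YZP, stood beside the lowest, 24.6 ± 6.71 CPM in Sham (SD, n = 3 each), with a log2 fold change of 0.74 (95% interval 0.054 to 1.42, edgeR adjusted p = 0.416). These groups overlapped, and the value was 0.53 without Sham replicate 1. In this comparison 11% of all genes had an unadjusted edgeR p under 0.05.

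Nfkb1 differed little between the treated groups and CCI. Nfkb1 held 32.8, 36.6 and 34.9 CPM in the CCI+YZP libraries, 38.1, 29.9 and 36.4 CPM in those of CCI+YH and 33.9, 31.1 and 27.5 CPM in those of CCI+BZ, against 32.3, 31.1 and 39.0 CPM in CCI. All 3 treated groups overlapped CCI. The 95% interval of the log2 fold change against CCI ran from -0.20 to 0.26 for CCI+YZP, from -0.21 to 0.26 for CCI+YH and from -0.38 to 0.090 for CCI+BZ, the narrowest intervals among the 7 genes.

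In order of mean level, Nfkb1 stood at 34.8 ± 4.30 CPM in CCI+YH, 34.8 ± 1.90 in CCI+YZP, 34.1 ± 4.27 in CCI, 30.8 ± 3.20 in CCI+BZ and 28.3 ± 1.96 in Sham (SD, n = 3 each). No neighbours in this order differed beyond their spread. EdgeR called 0 of the 7 genes against Sham in each treated group, beside 0.0666% of all genes for CCI+YZP, 0.0424% for CCI+YH and 0% for CCI+BZ. For Nfkb1 the log2 fold change against Sham was 0.30 for CCI+YZP (95% interval 0.064 to 0.53, edgeR adjusted p = 0.324), 0.30 for CCI+YH (0.063 to 0.53, adjusted p = 0.277) and 0.13 for CCI+BZ (-0.11 to 0.36, adjusted p = 0.811).

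Tlr4 held 3.50, 2.75 and 3.53 CPM in the CCI+YZP libraries, 3.70, 3.42 and 3.67 CPM in those of CCI+YH and 3.79, 2.92 and 2.43 CPM in those of CCI+BZ, against 4.11, 3.80 and 3.59 CPM in CCI. Every CCI+YZP library lay below every CCI library, by a narrow gap (3.53 against 3.59 CPM), and the other treated groups overlapped CCI. The share of all genes lower in every CCI+YZP library was not counted. The fold changes on the log2 scale were -0.24 for CCI+YZP (95% interval -0.62 to 0.14, edgeR adjusted p = 0.818), -0.094 for CCI+YH (-0.47 to 0.29, adjusted p = 0.964) and -0.33 for CCI+BZ (-0.71 to 0.048, adjusted p = 0.788).

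Ccl2 was split within every treated group. It held 3, 109 and 8 counts in the CCI+YZP libraries, 42, 8 and 116 counts in those of CCI+YH and 97, 2 and 0 counts in those of CCI+BZ, against 53, 36 and 93 counts in CCI. The highest library of each treated group exceeded every CCI library, and the lowest lay within the Sham range in CCI+YH and below it in CCI+YZP and CCI+BZ. For CCI+BZ replicate 3 a count of 0 allows up to 3 counts, or 0.155 CPM.

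Against CCI the log2 fold change of Ccl2 was -0.45 for CCI+YZP (95% interval -3.23 to 2.34), 0.13 for CCI+YH (-2.61 to 2.88) and -0.77 for CCI+BZ (-3.59 to 2.06), with edgeR adjusted p from 0.929 to 0.993. Each of these values depended on single libraries, both of the treated group and of CCI. Without CCI+YZP replicate 2 the log2 fold change was -3.29, without CCI+BZ replicate 1 it was -5.67 and without CCI+YH replicate 3 it was -0.97, and none of the 3 passed the threshold, with the lowest adjusted p at 0.286. Without CCI replicate 3 the values were 0.16 for CCI+YZP, 0.74 for CCI+YH and -0.16 for CCI+BZ, and without CCI+BZ replicate 3 the last was -0.18. The biological coefficient of variation that edgeR fitted for Ccl2 was 117%, at the 99.7th percentile of all genes, whose median was 11.3%. It was 68.0% for Il6, 36.4% for Ptgs2, 31.7% for Il1b, 27.0% for Nfkbia, 14.1% for Tlr4 and 9.78% for Nfkb1.

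Il6 held 4, 7 and 1 counts in the CCI+YZP libraries, 6, 3 and 16 counts in those of CCI+YH and 19, 1 and 5 counts in those of CCI+BZ, against 9, 4 and 18 counts in CCI. Il1b held 3, 9 and 12 counts in the CCI+YZP libraries, 7, 5 and 11 counts in those of CCI+YH and 10, 5 and 4 counts in those of CCI+BZ, against 10, 10 and 9 counts in CCI. Both cytokines overlapped CCI in all 3 treated groups. Summed over a group, Il6 came to 12 counts for CCI+YZP (exact 95% Poisson interval 6.20 to 21.0), 25 for CCI+YH (16.2 to 36.9), 25 for CCI+BZ (16.2 to 36.9) and 31 for CCI (21.1 to 44.0). These intervals cover counting error and not the spread between rats. With that spread included, the log2 fold change of Il6 in CCI+YZP against CCI was -1.16 (95% interval -3.20 to 0.88, edgeR adjusted p = 0.837). Leaving out CCI replicate 3 gave -0.35, and leaving out CCI+YZP replicate 2 gave -1.80. For Il1b the intervals against CCI ran from -1.38 to 1.21 for CCI+YZP, from -1.35 to 1.25 for CCI+YH and from -1.78 to 0.88 for CCI+BZ.

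Ccl2 separated along the main axis on which these libraries differed, and Il6 leaned the same way on few counts. The first principal component of log2 CPM, computed without the 7 genes, held 20.7% of the variance. Replicate 2 of CCI+YZP, replicates 1 and 3 of CCI+YH, replicate 1 of CCI+BZ and all 3 CCI libraries scored above 0, between 9.14 and 31.0. The remaining treated libraries and all 3 Sham libraries scored below 0, between -28.9 and -9.57. Ccl2 had 36 to 116 counts in the 7 libraries that scored above 0, and 0 to 13 counts in the 8 libraries that scored below 0. Il6 had 4 to 19 counts in those 7 libraries and 1 to 5 in those 8. These ranges overlap, and Il6 was under 10 counts in 12 of the 15 libraries. The share of all genes that separated at a score of 0 was not counted, so the separation of Ccl2 is a description only.

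In all 4 ligated groups the library with the highest score also had the highest level of Ccl2 and of Il6. This was so for Ptgs2, Nfkb1 and Il1b in 3 of the 4 groups, and for Tlr4 and Nfkbia in 1. How many of all genes were placed in this way was not counted. CCI+BZ replicate 1 was the exception for Ptgs2. It had 5.18 CPM of Ccl2 and 1.02 CPM of Il6, among the highest of all libraries, and 2.03 CPM of Ptgs2, the lowest of its group. These are positions of single rats, and no test was made across them. The cell type markers were not matched to identifiers, so the cell makeup of these libraries, and their labelled tissue, were not tested.

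**Figure D3:**
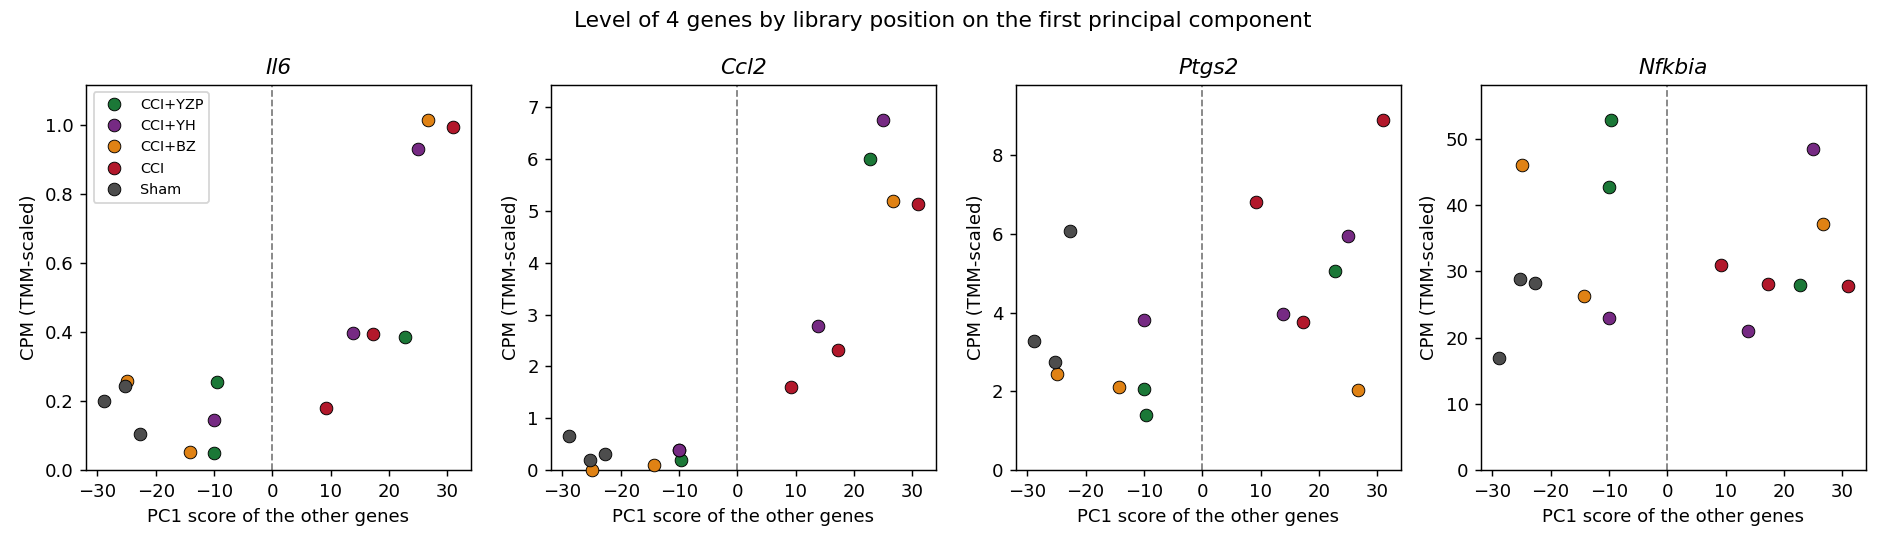
CPM of Il6, Ccl2, Ptgs2 and Nfkbia in each of the 15 libraries against the library's score on the first principal component of the other genes, coloured by group; the dashed line marks a score of 0. All 7 libraries above 0 lie at or above 1.61 CPM for Ccl2 and all 8 below 0 at or under 0.66 CPM, whereas Nfkbia reaches 52.8 CPM below 0 and 48.4 CPM above 0. The share of all genes that separate as Ccl2 does was not counted.

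Last, the treated groups were set against one another, and their doses were not the same. EdgeR called 0 of the 7 genes between CCI+YZP and CCI+YH, between CCI+YZP and CCI+BZ and between CCI+YH and CCI+BZ, beside 0%, 0.0182% and 0.0424% of all genes. Ptgs2, at 4.57 ± 1.18 CPM in CCI+YH and 2.20 ± 0.211 CPM in CCI+BZ (SD, n = 3 each), was the only gene of the 7 with an unadjusted p under 0.05 in any of these, as were 5.44% of all genes between CCI+YH and CCI+BZ. In the other 2 comparisons, CCI+YZP against CCI+YH and CCI+YZP against CCI+BZ, 0 of the 7 were, beside 3.56% and 5.10% of all genes. Every CCI+YH library lay above every CCI+BZ library, with a log2 fold change of 1.06 (SE 0.44, 95% interval 0.10 to 2.01, edgeR adjusted p = 0.879). How many of all genes separated between these groups was not counted. For Ptgs2 the log2 fold change of CCI+YZP against CCI+YH was -0.68 (95% interval -1.62 to 0.26; -1.39 without CCI+YZP replicate 2), and that of CCI+YZP against CCI+BZ was 0.37 (-0.59 to 1.34; -0.33 without CCI+YZP replicate 2).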

How the data were processed

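Per the labels' protocols, Trizol was used for RNA and the NEBNext Ultra kit for libraries. What the authors deposited are unnormalized read counts, whole numbers for every gene and library. Build rn4 and DESeq2 1.16.1 are listed per the submitters' processing notes. Not given in the sources used here are the aligner, counter, annotation and strand setting, so overlapping, antisense or near-identical genes may share reads.

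The 7 genes and all lists were chosen with earlier results of these data known. Planned lists of other pathway genes and of cell type markers could not be used, because 0 of the 47357 genes in RefSeq's table (GRCr8) carry an Ensembl identifier.

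Counts were analysed with edgeR 4.0.16 in R 4.3.3: filterByExpr (minimum count 10), TMM scaling, and a quasi-likelihood test (glmQLFit, glmQLFTest) with a coefficient for each of 5 groups over all 15 libraries (10 residual degrees of freedom), adjusted by Benjamini-Hochberg over 16522 genes. Each standard error was obtained by dividing the fold change by the square root of F. The fit was tested on simulated data. The principal component used log2 CPM with a prior count of 2.

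Alternatives were DESeq2 1.42.0, limma 3.58.1 (voom), RLE scaling, a fit without the filter, a filter at a mean of 50 counts, a replicate block, a fit restricted to the groups compared, an adjusted p under 0.1, and each library left out in turn. Libraries of a group differed by more than sampling noise (chi-square per gene 7.19 to 29.7 over 15 pairs).

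The genes named were the 7 themselves and, for the 3 with the highest mean CPM, the gene whose log2 CPM correlated best with each.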

Additional observations from a re-analysis of the deposited data

How the results depend on the processing

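In the 12 tests, 273 counts under the alternatives were 0, as reported. Of all these counts, 245 had all 7 genes tested, 14 had 5 (DESeq2, and the fit of only the groups compared) and 15 had 4 (a mean count of at least 50, and the same fit). The exception to 0 was CCI against Sham with only the groups compared, where 1 gene, Ccl2, was called and 5 of the 7 were tested. The number of all genes called in that comparison was 3, against 487 with DESeq2, 428 with only the groups compared and 193 without CCI+BZ replicate 1. For all ligated groups against Sham it was 31, against 471 with DESeq2, 0 without Sham replicate 1 and 158 without CCI+BZ replicate 3, and over the 5 groups 15, against 334. Same-numbered libraries had correlations of their deviations from -0.167 to 0.143, so they were not taken as paired; with the replicate block 0 of the 7 genes and 2 of all genes were called in CCI against Sham.

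Of 916 alternative values of the 43 reported folds, 27 turned in sign and 1 passed the threshold. With limma voom the log2 fold change in CCI+YH against CCI was -0.52 for Ccl2 and -0.0195 for Nfkbia, and that of Ccl2 was -1.63 in CCI+YZP and -3.34 in CCI+BZ. With each library left out in turn, log2 fold changes against CCI in CCI+YZP ranged from -0.39 to 0.24 for Il1b, -3.29 to 0.16 for Ccl2 and -0.033 to 0.13 for Nfkb1. In CCI+YH they ranged from -0.41 to 0.27 for Il1b, -0.95 to 0.74 for Il6, -0.97 to 0.74 for Ccl2, -0.039 to 0.13 for Nfkb1 and -0.40 to 0.30 for Nfkbia. In CCI+BZ those of Il6 ranged from -1.65 to 0.61. For Ptgs2 they ranged from -0.34 to 0.29 in all ligated groups against Sham and from -0.33 to 0.69 in CCI+YZP against CCI+BZ. The cause was not tested.

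Low counts limit the reading of Il1b and Il6 in most libraries, and of Ccl2 in the libraries with fewer than 10 counts. For Ccl2 and Il6 the spread between rats was also wide, with biological coefficients of variation of 117% and 68.0%.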

Other observations

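For the 3 genes with the highest mean CPM, the gene of most similar level over the 15 libraries was looked up among 16521 genes, as a description only, since libraries of a group share their treatment and the best of many correlations is high by selection. Nfkb1 was matched most closely by ENSRNOG00000005620 (Pearson r = 0.915, 4.06 to 13.4 CPM). Nfkbia was matched by ENSRNOG00000057078 (r = 0.905), which like Nfkbia spanned a wide range, from 77.8 to 243 CPM. Ptgs2 was matched by ENSRNOG00000015018 (r = 0.884, 234 to 307 CPM). The tables used here give no symbol for these identifiers, and the adjusted edgeR p over the 5 groups was 0.349, 0.389 and 0.479 in that order.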
